A study of Mus musculus with 6 samples.

Results

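A set of 10 Hippo pathway genes was followed in the stomach of mice lacking Cldn18: the coactivators Yap1 and Wwtr1, the transcription factors Tead1 and Tead4, the regulators Ajuba, Amotl2 and Lats2, and the target genes Ctgf, Cyr61 and Ankrd1. They were chosen by symbol, and all 10 were found among the 38720 rows of the deposited table. The Cldn18 product, a claudin, seals tight junctions between gastric epithelial cells. The study set 3 libraries from homozygous Cldn18 knockout mice (CLDN18-/-) against 3 from wild-type mice (CLDN18+/+), all of strain B6:129S5 and with no treatment named. RNA came from the neck region within the stomach corpus, cut from unfixed frozen sections by laser capture microdissection, in which a laser excises chosen tissue under the microscope. The age is uncertain: it is 7 weeks in the labels of the samples and 7 days in the series' design text. Neither the deleted part of Cldn18 nor the number of animals behind each library is given in the sources used here, so the p-values reflect variation among these 6 libraries, part or all of which may be technical.

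In the Hippo pathway, the kinases encoded by Stk3 and Stk4 activate the kinases encoded by Lats1 and Lats2, and these phosphorylate the coactivators YAP and TAZ, the products of Yap1 and Wwtr1. Phosphorylated YAP and TAZ stay in the cytoplasm or are degraded, and unphosphorylated they enter the nucleus and bind TEAD factors on target genes such as Ctgf, Cyr61 and Ankrd1. Cell junctions feed into this pathway, and in the gastrointestinal epithelium YAP is best known for its role in regeneration after injury. Much of this regulation acts on the proteins and their location, which RNA levels do not measure.

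TEAD factors recognise a short element, and its 6-letter core, CATTCC or its reverse complement GGAATG, was searched on both strands of RefSeq promoter windows (GRCm38.p6, the assembly also called mm10) that run from 250 bases before to 50 after a transcription start. Windows were matched for 7 of the 10 genes, Yap1, Wwtr1, Ajuba, Amotl2, Lats2, Cyr61 and Ankrd1. Each of the 7 held the core in at least 1 window, with 9 different matches in 8 of 9 windows, and 14.7% of all 32851 windows of 300 bases held it. The 2 Wwtr1 windows overlap and share 1 match. Since the genes include known YAP target genes, such as Cyr61 and Ankrd1, setting these counts beside that share is not a test. A match is a description of the letters and does not show that a factor binds there. The Ajuba and Ankrd1 windows each held the core 2 times, and 1.33% of all windows held it that often. These 2 windows are printed whole for that reason, with the core in capitals. Both are given 5′ to 3′ on the minus strand, chr14:54577612-54577911 for Ajuba and chr19:36119795-36120094 for Ankrd1.
Ajuba: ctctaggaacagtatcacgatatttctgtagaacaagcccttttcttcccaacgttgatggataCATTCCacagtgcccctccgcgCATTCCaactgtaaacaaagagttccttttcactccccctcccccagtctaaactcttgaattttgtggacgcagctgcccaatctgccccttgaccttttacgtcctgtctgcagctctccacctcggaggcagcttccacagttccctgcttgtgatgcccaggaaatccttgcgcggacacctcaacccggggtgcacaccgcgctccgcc
Ankrd1: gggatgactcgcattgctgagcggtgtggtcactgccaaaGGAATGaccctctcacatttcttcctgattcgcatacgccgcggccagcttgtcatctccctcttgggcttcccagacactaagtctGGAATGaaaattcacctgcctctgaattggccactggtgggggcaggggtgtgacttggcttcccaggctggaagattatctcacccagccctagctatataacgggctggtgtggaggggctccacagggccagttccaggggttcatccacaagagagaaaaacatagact

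For the other 5 genes the core is shown in capitals with 15 bases on either side, so that the letters around it can be compared. The stretches lie at chr9:8004717-8004752 for Yap1, chr3:57576026-57576061 for Wwtr1, chr9:102717724-102717759 for Amotl2, chr14:57746099-57746134 for Lats2 and chr3:145650068-145650103 for Cyr61. Amotl2 is read on the plus strand and the others on the minus strand.
Yap1: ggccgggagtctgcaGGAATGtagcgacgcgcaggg
Wwtr1: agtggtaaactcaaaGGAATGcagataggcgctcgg
Amotl2: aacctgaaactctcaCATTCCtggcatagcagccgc
Lats2: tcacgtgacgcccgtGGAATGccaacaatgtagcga
Cyr61: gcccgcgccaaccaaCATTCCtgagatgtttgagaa
The core began 141 bases before the start in Yap1, 136 or 170 in Wwtr1 (from its 2 annotated starts), 65 in Amotl2 and 103 in Cyr61. In Lats2 it began 5 bases into the transcript of 1 window, and the other Lats2 window did not hold these letters.

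The libraries held 37673283 to 52842813 reads on genes. Values are normalized counts, that is, reads divided by 1 size factor per library, as the authors deposited them. Cldn18 had 13035, 16798 and 15818 normalized counts in the knockout libraries, against 30498, 21210 and 23241 in the wild-type ones, a log2 difference of -0.71 ± 0.20 (SE; limma adjusted p = 0.0134). Leaving out Cldn18 knockout replicate 1 ended the call (adjusted p = 0.0896). The groups did not overlap, but the gene was still read in the knockout. Wild-type replicates 2 and 3 stood apart from replicate 1 in some keratins of stratified squamous epithelium. Krt5, Krt14 and Krt15 summed to 114, 141 and 120 in the knockout libraries, against 430, 6818 and 2384 in wild-type replicates 1, 2 and 3. The squamous marker Trp63 had 9.79, 11.1 and 41.8 in wild-type replicates 1, 2 and 3. Where the call or direction of 1 of the 10 genes turned on wild-type replicates 2 and 3, its value without them is also given. The 14 gastric epithelial markers were detected in each library and split between the groups, with 5 called higher (Epcam, Cdh1, Krt8, Krt18 and Gkn3), 6 lower (Gkn1, Muc6, Atp4a, Atp4b, Pgc and Gif) and 3 not called. Over all tested genes 23.3% were called higher and 21.5% lower. Their sum, most of it Pgc in wild-type, was 535543 to 740152 in the knockout, against 2450442 to 3738831 in wild-type. In bulk tissue, fewer cells of a type and less RNA per cell cannot be told apart.

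The genes for YAP, TEAD1 and the regulator Ajuba were higher in the knockout, and Amotl2 was lower. The test was limma on log2(normalized count + 1), with Benjamini-Hochberg adjustment over the 17432 genes that reached 10 normalized counts in 3 or more libraries; a gene was called at an adjusted p under 0.05. Of the 10 genes 9 passed that filter and Ankrd1 did not. Among the 9, 3 were called higher and 1 lower, against 23.3% of all tested genes called higher and 21.5% called lower. These shares are near the background, so the counts alone do not set the 10 genes apart. With edgeR the counts were also 3 and 1 (background 24.8% higher, 21.4% lower) and so with DESeq2 (22.7% higher, 23.5% lower), and without wild-type replicates 2 and 3 they were 4 and 0 (17.2% higher, 14.3% lower). Values of the knockout and wild-type libraries did not overlap for Yap1, Tead1, Ajuba, Amotl2 and the untested Ankrd1, of which 3 were higher and 2 lower. Among all tested genes 55.2% had groups that did not overlap, 28.1% with the knockout above wild-type and 27.1% with it below. The median log2 difference was 0.40 over the 9 genes and -0.02 over all tested genes.

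**Figure D1:**
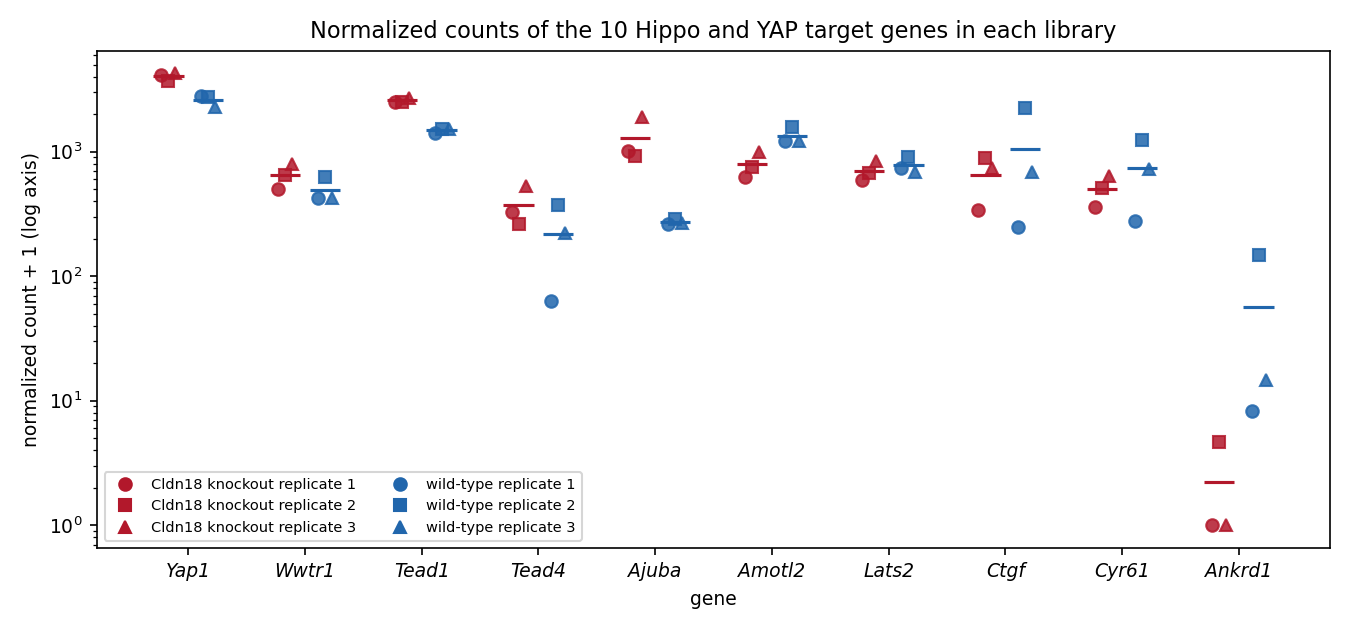
Normalized counts plus 1, on a log axis, of the 10 genes in each of the 3 Cldn18 knockout libraries (red) and 3 wild-type libraries (blue); marker shapes give the replicate and short lines the group means. Yap1, Tead1 and Ajuba lie higher in all knockout libraries, Amotl2 and Ankrd1 lower, and Ctgf, Cyr61, Ankrd1 and Tead4 are spread widely among the wild-type libraries.

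Yap1 (ENSMUSG00000053110.13, at chr9:7931999-8004596 on the minus strand of mm10) showed 4151, 3678 and 4259 normalized counts in the knockout libraries, against 2814, 2771 and 2281 in wild-type. The lowest knockout value lay above the highest wild-type value, and the log2 difference was 0.62 ± 0.14 (SE; limma adjusted p = 0.00447), or 1.54-fold. Its paralog Wwtr1 (ENSMUSG00000027803.14, chr3:57455649-57575910), which encodes TAZ, had 497, 653 and 799 in the knockout, against 426, 621 and 424 in wild-type. Here the groups overlapped, and the log2 difference of 0.40 (95% interval -0.09 to 0.89) was not called (limma adjusted p = 0.167). Without wild-type replicate 2 it was 0.58 and was called (adjusted p = 0.0426). An interval of this width covers the difference seen for Yap1, and the ratio of Wwtr1 to Yap1 within a library did not separate the groups: it was 12.0%, 17.8% and 18.8% in the knockout, against 15.1%, 22.4% and 18.6% in wild-type (two-sided exact permutation p = 0.5, adjusted p = 0.9 over 3 ratios; 3 against 3 cannot go below 0.1).

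Among the 14 gastric epithelial markers, of which 5 were called higher and 6 lower (background 23.3% and 21.5%), the general epithelial genes were higher, like Yap1. Epcam, an epithelial adhesion gene, rose by a log2 difference of 0.98 ± 0.14 and Cdh1, which encodes E-cadherin, by 1.04 ± 0.22 (SE; limma adjusted p = 0.00037 and 0.00332). Their part in the rise of Yap1 was not tested. Yap1 overlaps Gm20416 on the opposite strand, and since the counting is not stated to use strand their reads cannot be told apart. Gm20416 itself had 5.77 to 14.2 normalized counts in the knockout and 2.45 to 13.6 in wild-type.

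Among the TEAD genes, which encode the DNA-binding partners of YAP and TAZ, Tead1 (ENSMUSG00000055320.17, chr7:112679318-112906807, plus strand) had 2516, 2517 and 2714 normalized counts in the knockout, against 1420, 1524 and 1531 in wild-type. These values were tight within each group, and the log2 difference was 0.79 ± 0.12 (SE; limma adjusted p = 0.000572). Tead4 (ENSMUSG00000030353.15, chr6:128224288-128300823, minus strand) had 324, 264 and 527 in the knockout, against 62.4, 373 and 219 in wild-type. The groups overlapped because of wild-type replicate 2, and the log2 difference of 1.04 (95% interval -0.15 to 2.23) was not called (adjusted p = 0.143). Without wild-type replicate 2 the difference was 1.59 and called (adjusted p = 0.0118), as it was with a replicate block (1.04, adjusted p = 0.0406). Without wild-type replicates 2 and 3 it was 2.49 (adjusted p = 0.00249), a fit with a single wild-type library that is assumed to vary like the knockout ones.

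Relative to Tead1 in the same library, Tead4 stood at 12.9%, 10.5% and 19.4% in the knockout, against 4.40%, 24.5% and 14.3% in wild-type (two-sided exact permutation p = 0.9, also after adjustment). The 3 wild-type ratios enclosed all 3 knockout ratios.

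Both other TEAD genes come from the pathway lists. Tead2 had 1381, 1022 and 1235 normalized counts in the knockout, against 162, 245 and 117 in wild-type, the largest TEAD difference on the log2 scale (2.85 ± 0.26 SE; limma adjusted p = 1.53e-05). Tead3 had 675, 683 and 779 in the knockout, against 463, 666 and 540 in wild-type, and was not called (log2 difference 0.37, adjusted p = 0.111). Without wild-type replicate 2 Tead3 was called higher (0.51, adjusted p = 0.034). Tead2 overlaps Cd37 on the opposite strand, a lymphocyte gene that had 14.04 to 24.99 in the knockout and 21.4 to 38.3 in wild-type.

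Levels can be compared between genes only per length of exon, taken here as the union of annotated exons. Per kb, the 4 TEAD genes together gave 664, 574 and 720 normalized counts in the knockout, against 225, 366 and 279 in wild-type. Tead2 made up 38.8% ± 4.1 of that sum in the knockout and 12.6% ± 3.4 in wild-type, and Tead1 29.3% ± 2.6 in the knockout and 39.3% ± 8.0 in wild-type (SD, n = 3 each; no test was made of these shares). Thus, per kb, the family was led by Tead2 in each knockout library and by Tead1 in each wild-type library. In wild-type replicate 2 Tead1 (30.7%) was close to Tead4 (28.3%). The order rests on the exon lengths used, 13.57 kb for Tead1 and 4.788 kb for Tead2. Before division by length Tead1 had more counts than Tead2 in each library.

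**Figure D2:**
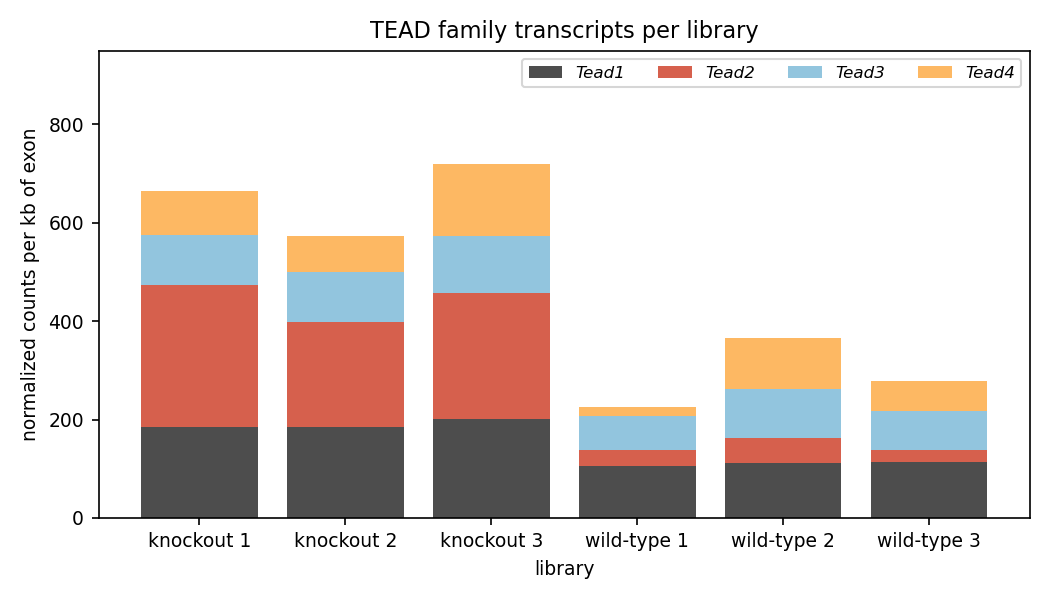
Normalized counts per kb of exon for Tead1 to Tead4, stacked, in the 3 Cldn18 knockout libraries (left) and 3 wild-type libraries (right). The stacks reach 574 to 720 in the knockout and 225 to 366 in wild-type, and the Tead2 segment is the one that differs most in height.

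Ajuba (ENSMUSG00000022178.11, chr14:54567472-54577558, minus strand) encodes a LIM domain protein of cell junctions that restrains the LATS kinases. It had 1021, 928 and 1904 normalized counts in the knockout, against 263, 285 and 269 in wild-type. Wild-type values were nearly equal and each knockout value was more than 3 times any of them. This was the largest difference among the 9 genes tested, 2.16 ± 0.25 on the log2 scale (SE; limma adjusted p = 7.45e-05), or 4.46-fold, and it was called under all 20 alternative settings.

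Amotl2 (ENSMUSG00000032531.15, chr9:102716672-102733418, plus strand) encodes an angiomotin family protein that binds YAP at junctions, and it is itself a target gene of YAP. Its values were 627, 759 and 996 in the knockout, against 1214, 1570 and 1216 in wild-type. It was the only one of the 9 called lower, with groups that did not overlap and a log2 difference of -0.76 ± 0.19 (SE; limma adjusted p = 0.00803). Without wild-type replicates 2 and 3 the difference was -0.64 and the call was lost (adjusted p = 0.0921). Lats2 (ENSMUSG00000021959.16, chr14:57689662-57758388, minus strand), a kinase that inhibits YAP and also a target gene of YAP, had 590, 676 and 836 in the knockout, against 742, 908 and 681 in wild-type. Its groups overlapped, and the log2 difference of -0.15 (95% interval -0.55 to 0.25) was not called (adjusted p = 0.526). Lats2 overlaps Gm49361 on the same strand, a gene for which no values are used here, so shared reads make its level uncertain.

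**Figure D3:**
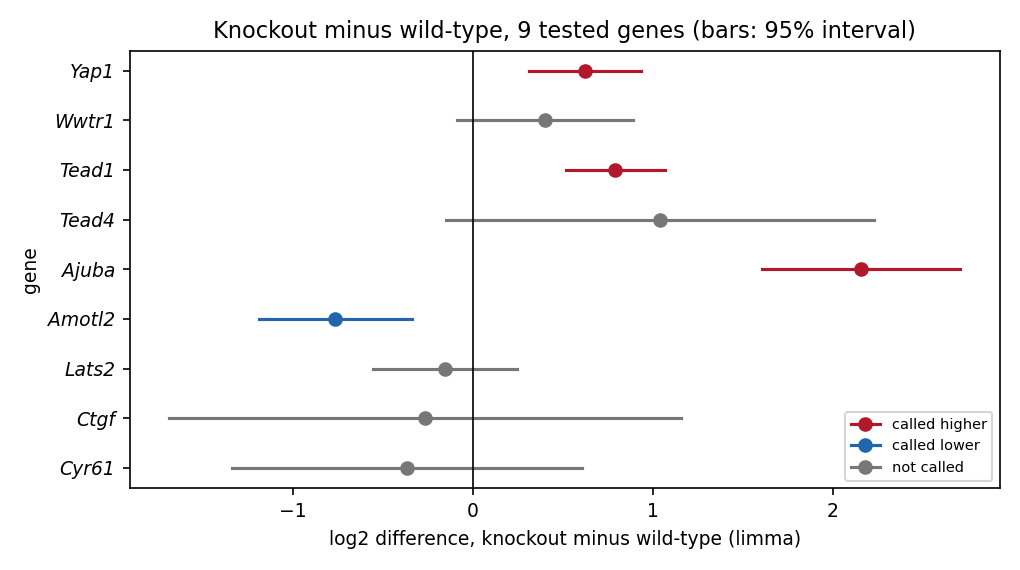
Log2 difference, knockout minus wild-type, for the 9 genes tested; points are limma estimates and bars their 95% intervals, red for called higher, blue for called lower and grey for not called. Ajuba stands at 2.16 and Amotl2 at -0.76, and the intervals of Ctgf, Cyr61 and Tead4 are the widest.

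The target genes Ctgf and Cyr61, which encode secreted matricellular proteins and are widely used as readouts of YAP and TAZ, were not called in either direction. Ctgf (Ccn2 in the annotation, ENSMUSG00000019997.11, chr10:24595442-24598683, plus strand) had 336, 883 and 738 normalized counts in the knockout, against 247, 2240 and 687 in wild-type. Cyr61 (Ccn1, ENSMUSG00000028195.4, chr3:145646976-145649981, minus strand) had 356, 510 and 639 in the knockout, against 279, 1230 and 722 in wild-type. For both genes the 3 knockout values lay between the lowest and the highest wild-type value. The log2 difference was -0.27 for Ctgf (95% interval -1.69 to 1.15; limma adjusted p = 0.765) and -0.37 for Cyr61 (-1.34 to 0.61; adjusted p = 0.533), intervals wide enough to hold changes of 2-fold in either direction for Ctgf and a 2-fold fall for Cyr61.

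The sign of both differences turned on single libraries. Without wild-type replicate 2 the log2 difference was 0.55 for Ctgf (adjusted p = 0.325) and 0.12 for Cyr61 (adjusted p = 0.81). Without wild-type replicates 2 and 3 it was 1.28 for Ctgf (adjusted p = 0.075) and 0.80 for Cyr61 (adjusted p = 0.09). Cyr61 was called lower without wild-type replicate 1 (-0.95, adjusted p = 0.0159). Ctgf was at 0.15 without Cldn18 knockout replicate 1 (adjusted p = 0.886). The ratio of Ctgf to Cyr61 within a library was 94.4%, 173% and 115% in the knockout, against 88.6%, 182% and 95.2% in wild-type (two-sided exact permutation p = 0.8, adjusted p = 0.9). Across the 6 libraries this ratio spanned a narrower range than either gene. Ctgf overlaps Gm15270 on the opposite strand, which had 2.88 to 13.3 in the knockout and 8.57 to 15.5 in wild-type.

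Ankrd1 (ENSMUSG00000024803.9, chr19:36111961-36120099, minus strand), which encodes an ankyrin repeat protein best known from muscle, was at or near 0 in the knockout. It had 0, 3.69 and 0 normalized counts there, against 7.34, 147 and 13.6 in wild-type. In reads this was 0, 5 and 0 in the knockout, against 6, 119 and 14 in wild-type, so 1 wild-type library held most of the signal. A count of 0 allows up to 3 reads, or 2.83 and 2.88 normalized counts in Cldn18 knockout replicates 1 and 3. The gene failed the filter on low values. With no filter limma called it lower (adjusted p = 0.0152), but the size of that difference rests on the pseudocount, since 2 knockout libraries are at 0. The authors' deposited table gives a fold change of 0.022, a ratio of means, with an adjusted p of 0.382.

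Ctgf, Cyr61, Ankrd1 and Tead4 shared an order among the wild-type libraries. Relative to wild-type replicate 1, replicate 2 stood 9.06 times higher for Ctgf, 4.41 times for Cyr61, 20.01 times for Ankrd1 and 5.97 times for Tead4. Replicate 3 stood 2.78, 2.59, 1.85 and 3.52 times higher for the same genes. Tested genes at least 3 times higher in replicate 2 and at least 1.5 times higher in replicate 3 made up 8.13% of all tested genes, and 3 of the 9 tested here (Ctgf, Cyr61 and Tead4) were among them. The cut-offs describe an order seen in these same genes, so this count is a description and not a test. The other 6, Yap1, Wwtr1, Tead1, Ajuba, Amotl2 and Lats2, stayed within 0.81 to 1.46 times replicate 1.

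Some markers of other cells followed that order too. Krt5 was 14.6 and 4.85 times higher in wild-type replicates 2 and 3 than in replicate 1, Krt14 19.3 and 7.02 times, and Krt15 14.7 and 5.43 times. Krt13 stood at 9.05 and 4.34 times, Krt6a at 2.62 and 1.75 times and Krt4 at 2.77 and 2.51 times. Trp63, another squamous marker, did not share the order, at 1.13 and 4.26 times. Actc1, a muscle actin, was 10.5 and 3.42 times higher, unlike the other striated muscle markers called lower: Myh6 stood at 0.58 and 0.67 times, Myh7 at 1.07 and 0.81 times and Tnni3 at 0.94 and 0.66 times. Epcam (0.80 and 0.82 times) and Cdh1 (0.71 and 0.70 times) were not. The 9 squamous markers summed to 565 to 716 in the knockout, against 517, 7302 and 2696 in wild-type replicates 1, 2 and 3. Of 8 tested, 1 was called higher (Ivl) and 4 lower (Krt5, Krt14, Krt6a and Krt15), against 23.3% and 21.5% of all tested genes. Krt6a and Ivl were at 0 in some library. The 8 striated muscle markers summed to 175 to 248 in the knockout, against 6153, 7210 and 4535 in wild-type replicates 1, 2 and 3. Most of the wild-type sum was Tnni3 (5541, 5221 and 3668). Of 5 tested, 4 were called lower and Myh2 was not called, and Ckm and Myl2 were under 10 throughout. The part of the squamous and muscle markers in the levels of Ctgf, Cyr61, Ankrd1 and Tead4 was not tested.

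**Figure D4:**
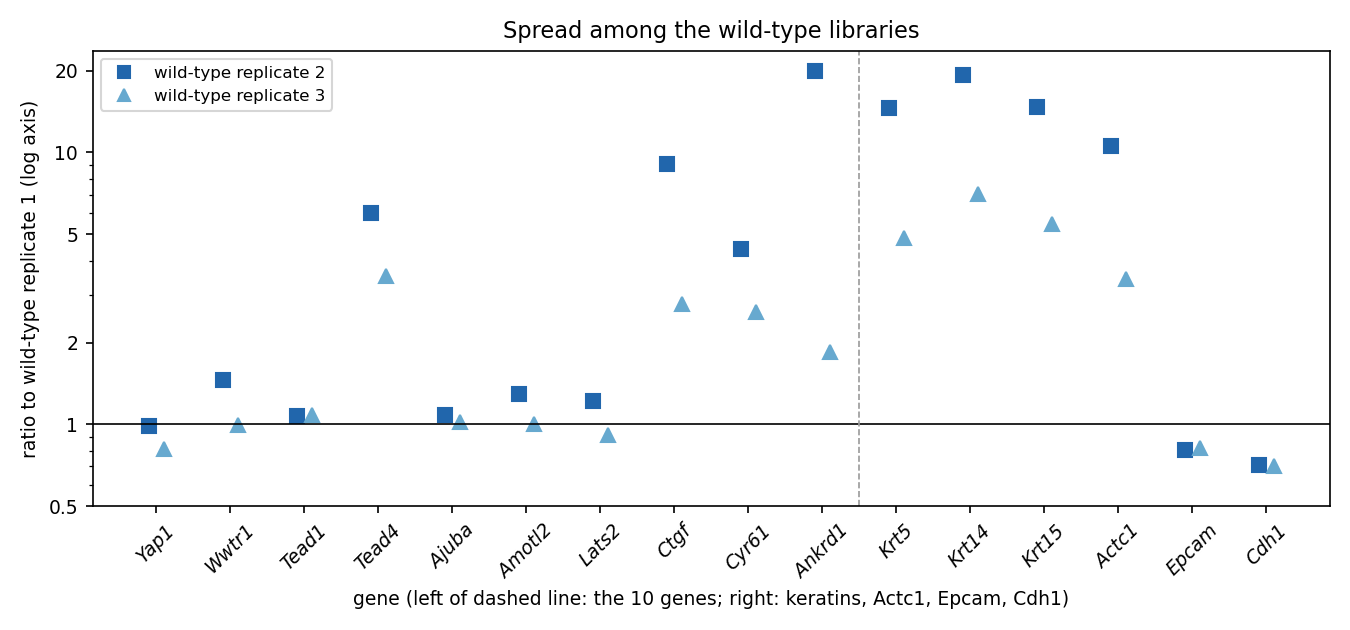
Ratio of wild-type replicate 2 (squares) and replicate 3 (triangles) to wild-type replicate 1, on a log axis, for the 10 genes (left of the dashed line) and for 3 keratins, Actc1, Epcam and Cdh1 (right). Tead4, Ctgf, Cyr61 and Ankrd1 lie at 4.41 to 20.01 times in replicate 2, the keratins at 14.6 to 19.3 times, and the other 6 genes near 1.

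Ctgf and Cyr61 are also expressed by cells of vessels and stroma, some of whose markers differed between the groups. For the counts that follow, the background over all tested genes was 23.3% called higher and 21.5% called lower. Endothelial markers (10 genes) summed to 2149 to 2796 in the knockout, against 5349 to 8037 in wild-type, with 8 of 9 tested called lower. Fibroblast markers (8 genes) summed to 28306 to 50123 in the knockout, against 23891 to 39737 in wild-type, with 3 of 8 called higher. Smooth muscle markers (8 genes) summed to 9533 to 11078 in the knockout, against 10566 to 14975 in wild-type, with 4 of 8 called lower. The fibroblast and smooth muscle sums overlapped between the groups. Macrophage markers (6 genes) summed to 2529 to 4751 in the knockout, against 1565 to 2441 in wild-type, with 3 of 6 called higher. Mesothelial markers (6 genes) summed to 99.7 to 327 in the knockout and 1369 to 1861 in wild-type, most of it Gpm6a in wild-type, with 2 of 4 tested called higher and 1 lower and with Upk3b, Msln and Lrrn4 at 0 in some library. Acinar markers of the pancreas (9 genes) summed to 1350 to 2575 in the knockout and 1250 to 1605 in wild-type. Of 4 acinar markers tested, 1 was called higher and 1 lower, and Cpa1, Prss2 and Amy2b were under 10 throughout. The part of all these markers in the values of the 10 genes was not tested.

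Per kb of exon, Yap1 was the most abundant of the 10 in the knockout, at 435 ± 33 normalized counts per kb, followed by Ajuba at 352 ± 148, Cyr61 at 248 ± 70, Ctgf at 228 ± 99 and Tead1 at 190 ± 8 (SD, n = 3). Neighbours in that order overlapped in their library values except Tead1 with the next, Wwtr1 at 136 ± 32, and Lats2 with Ankrd1 at the bottom. In wild-type, Ctgf (370 ± 366) and Cyr61 (368 ± 236) led with wide spreads, followed by Yap1 at 283 ± 32 and Amotl2 at 212 ± 33 (SD, n = 3). Ajuba stood in place 2 of 10 in the knockout and place 8 in wild-type.

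The wider pathway was read through 5 lists of 73 genes, the 10 included, which were chosen with earlier results of these data known. Among them are 8 genes tied to YAP in the regenerating or fetal-like gut, several known to be higher in these data when listed. Of these 8, 7 were called higher and 1 lower, so counts over all lists are a description. Of the 70 genes tested over the 5 lists, 34 were called higher and 3 lower, against 23.3% and 21.5% of all tested genes. After upper quartile scaling of the libraries the split was 30 higher and 8 lower (3456 and 4504 of all 17432 tested genes), and after quantile normalization 32 and 8 (4244 and 3543 of all).

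Kinases of the core cascade and their adaptors were called higher or not called. Outside the 10 genes, 5 of 12 tested were higher and none lower (limma; background 23.3% and 21.5%), and the median of the whole list was 0.30 on the log2 scale. Stk38l, a kinase related to LATS, averaged 1212 ± 201 in the knockout and 717 ± 129 in wild-type, and Sav1, the scaffold of the upstream kinases, 1402 ± 101 in the knockout and 834 ± 78 in wild-type (SD, n = 3 each). Mob1a, a LATS cofactor, averaged 5241 ± 348 in the knockout and 3318 ± 473 in wild-type, and Taok3, an upstream kinase, 3925 ± 471 in the knockout and 2586 ± 227 in wild-type. Without wild-type replicates 2 and 3 the calls of Stk38l (adjusted p = 0.106) and Mob1a (adjusted p = 0.0584) were lost, and the list had 2 higher. Stk3 and Stk4 were not called (log2 differences -0.24 and 0.32). Lats1 was called higher (0.43, limma adjusted p = 0.0308). That call was lost in 12 of 19 alternatives, a required log2 difference of at least 1 not counted.

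Among upstream and junction-linked regulators outside the 10 genes, 11 of 21 tested were higher and none lower (background 23.3% and 21.5%). With Ajuba and Amotl2 the list had 12 higher and 1 lower. The higher count fell when single libraries were left out, to 6 without Cldn18 knockout replicate 1 or wild-type replicate 3, and to 7 without Cldn18 knockout replicate 3. Over all tested genes the higher count fell too, from 4053 to 3142, 3314 and 3138 without these libraries in that order. Frmd6, a FERM domain activator of the pathway, rose by a log2 difference of 1.20 ± 0.22 and Rassf6, which binds the upstream kinases, by 1.03 ± 0.17 (SE; limma adjusted p = 0.0015 and 0.00066). Dlg5, a junction scaffold, rose by 0.96 ± 0.18. The angiomotin gene Amot rose by 0.79 ± 0.22 (adjusted p = 0.0144), opposite in sign to its relative Amotl2. Leaving out Cldn18 knockout replicate 2 (adjusted p = 0.0689) or wild-type replicate 3 (adjusted p = 0.0644) ended the Amot call. Amotl1 was not called (-0.40, adjusted p = 0.158).

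Of the VGLL cofactors, which compete with YAP and TAZ for TEAD, Vgll3 had 494, 670 and 749 normalized counts in the knockout, against 37.9, 75.3 and 68.9 in wild-type. The log2 difference was 3.41 ± 0.30 (SE; limma adjusted p = 1.26e-05), and each knockout value was over 6 times any wild-type value. Vgll4, a repressor of YAP activity, had 895, 915 and 973 in the knockout, against 1167, 1334 and 1072 in wild-type. It was not called (-0.35, limma adjusted p = 0.0645). The gene was called lower with edgeR (adjusted p = 0.0446) and DESeq2 (adjusted p = 0.0459). Limma called it lower after quantile normalization (adjusted p = 0.00864) and after upper quartile scaling (adjusted p = 0.00714). In 15 other alternatives it stayed without a call. Vgll1 and Vgll2 were too low to test.

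A published signature of 22 YAP and TAZ target genes, which includes Ctgf, Cyr61, Ankrd1, Amotl2 and Lats2, went both ways. Of its 21 tested genes 7 were called higher, 2 lower and 12 were not called, against 23.3% higher and 21.5% lower among all tested genes, and its median log2 difference was -0.07 against -0.02 over all. The counts were 4 higher and 4 lower without Cldn18 knockout replicate 3, 4 and 2 without wild-type replicate 3, and 1 was lower without Cldn18 knockout replicate 1 or 2. Over all tested genes 3138 were higher and 3141 lower without Cldn18 knockout replicate 3, and 3314 and 3147 without wild-type replicate 3. With all libraries these numbers were 4053 and 3743. Outside the 10 genes, 7 of 17 were higher and 1 lower. The largest increases were in F3, the tissue factor gene, which averaged 2536 ± 1058 in the knockout and 465 ± 120 in wild-type, and in the matrix gene Ccdc80, at 1271 ± 513 in the knockout and 235 ± 37 in wild-type (SD, n = 3 each). Myof, a membrane repair gene of the ferlin family, rose by 1.78 ± 0.25 and Dock5, an activator of Rac, by 1.35 ± 0.15 (log2 difference ± SE; limma adjusted p = 0.000282 and 6.36e-05). Crim1, a transmembrane regulator of growth factors, was lower (-0.71 ± 0.22, adjusted p = 0.0231). Leaving out Cldn18 knockout replicate 1 or 2 ended that call (adjusted p = 0.0907 and 0.0667).

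**Figure D5:**
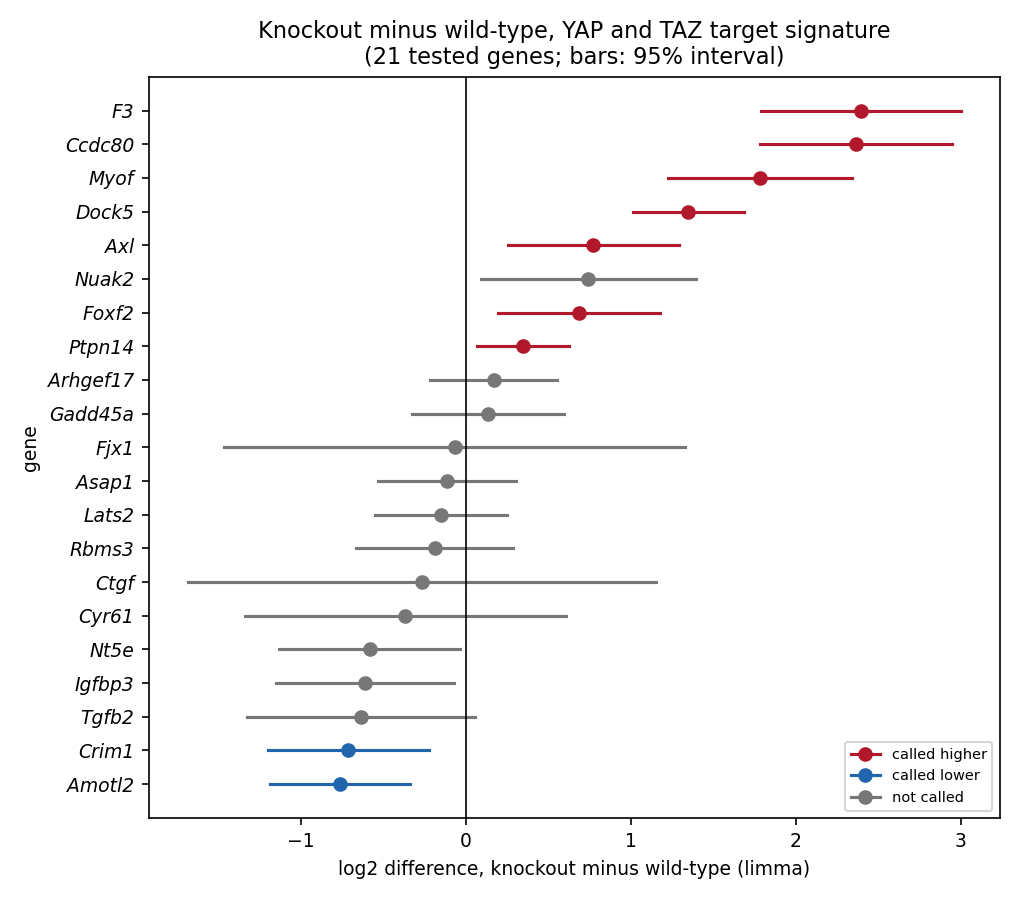
Log2 difference, knockout minus wild-type, for the 21 tested genes of the YAP and TAZ target signature, sorted by size; points are limma estimates, bars 95% intervals, and colours give the call. F3 at 2.40 and Amotl2 at -0.76 are the extremes, with 12 genes not called between them.

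Genes tied to YAP in the regenerating or fetal-like gut were almost all higher. Of 8 tested, 7 were higher and 1 lower, where 23.3% of all tested genes were called higher and 21.5% lower. Several of the 8 were known to be higher in these data when the list was drawn up, so the count is a description. Clu, a marker of revival stem cells of the mouse intestine, averaged 234371 ± 59965 normalized counts in the knockout and 28179 ± 5894 in wild-type (SD, n = 3 each). Ereg, which encodes the ligand epiregulin, rose by a log2 difference of 3.03 ± 0.46 (SE; limma adjusted p = 0.000444). Msln, the mesothelin gene, had 80.3, 52.5 and 218 normalized counts in the knockout, against 3.67, 0 and 5.83 in wild-type, so it passed the filter on low values only through the knockout libraries. It is also a mesothelial marker, as is Upk3b, which was called higher too, whereas the mesothelial marker Gpm6a was lower; their part in the Msln level was not tested. Ly6a, the gene for Sca-1, was lower, at 310 ± 45 in the knockout and 559 ± 180 in wild-type, and leaving out Cldn18 knockout replicate 2 ended its call (limma adjusted p = 0.0751).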

How the data were processed

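STAR, featureCounts, DESeq and the mm10 build are named per the submitters' processing notes; versions, annotation and strand setting are not given. The authors deposited normalized counts, here treated as a signal; dividing each library by its smallest step gave whole reads for 100% of values within 0.05 reads. The authors also deposited a comparison table of 23086 genes with means, a fold change (ratio) and p-values, used only as an alternative.

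The main test was limma 3.58.1 (R 4.3.3; lmFit, eBayes with a mean trend, two-sided) on log2(normalized count + 1), a scale that understates changes of low genes. When libraries were left out, the genes tested stayed the same. edgeR 4.0.16 (4323 genes higher, 3724 lower) and DESeq2 1.42.0 ran on the recovered reads. The procedure was also run on 5 simulated datasets with 200 changed genes each. Here 7796 genes were called, so those runs do not measure the error rate in these data. Intervals are 95%, and floors of 3 reads cover counting error only. Gene coordinates and exon lengths came from GENCODE vM21, promoter windows from RefSeq. Named beyond the 10 genes and Cldn18 were up to 4 called genes of each pathway list in each direction, by size of the log2 difference. Markers, Lats1 and a few genes not called, such as Tead3 and Vgll4, were named outside that rule. The 10 genes and all lists were chosen with earlier results of these data known. Replicate numbers did not pair the libraries (correlations of deviations -0.00366, 0.0214 and -0.173). A gene that the naming rule selects is not reported here.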

Additional observations from a re-analysis of the deposited data

How the results depend on the processing

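Over 20 alternatives Yap1 and Tead1 stayed called higher apart from a required log2 difference of at least 1, and Ajuba in all. With that size threshold 1 of the 10 genes was higher and 0 lower, and of the pathway genes 16 were higher and 0 lower. Over all genes 1957 were then called higher and 2624 lower. Cldn18, at -0.71, missed the threshold. With 1 library left out, 3 to 5 of the 10 genes were higher and 1 to 2 lower, 25 to 37 pathway genes were higher and 1 to 6 lower (1 without Cldn18 knockout replicate 2, 6 without replicate 3), and Cldn18 ranged from -0.82 to -0.55. Over all genes the fits with 1 library left out called 3138 to 4379 higher and 2969 to 3899 lower. With no filter 2 of the 10 were lower, as were 3777 of all 33864 genes then tested. Without wild-type libraries 2 and 3, 0 were lower, and 2488 genes were lower in all; the authors' deposited table called 2024 lower. Against 3, pathway genes called lower numbered 5 with DESeq2, 1 without limma's trend, 8 with quantile normalization or upper quartile scaling, 1 without wild-type libraries 2 and 3, and 1 in the authors' deposited table. These scalings moved the median of all genes to 0.10 and -0.15, against -0.02. Genes called lower over all tested genes numbered 4019 with DESeq2 and 3401 without limma's trend. They numbered 3543 with quantile normalization and 4504 with upper quartile scaling, against 3743 in the main fit. The causes were not tested.

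Reversals concern differences with no call. Ctgf turned to 0.15 without Cldn18 knockout replicate 1, 0.55 without wild-type replicate 2 and 1.28 without wild-type libraries 2 and 3, and Cyr61 to 0.12 and 0.80 in both of the last; without wild-type replicate 1 they were at -1.04 and -0.95. On the log2 scale the ratio of Wwtr1 to Yap1 turned to 0.067 without wild-type libraries 2 and 3, against -0.22. With 1 library left out, the difference ranged from -0.37 to -0.02 for Wwtr1 to Yap1, from -0.44 to 0.80 for Tead4 to Tead1 and from -0.14 to 0.43 for Ctgf to Cyr61, which also turned to -0.09 and -0.04. No pairing was seen. With the replicate block 4 of the 10 genes were higher and 1 lower, 5 pathway genes were lower, and Tead4 gained a call (1.04, limma adjusted p = 0.0406). Over all genes that fit called 3726 higher and 3626 lower.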
